A study of Mus musculus with 6 samples.

Results

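The 9 genes described here encode the first kinases, adaptors and effectors that act inside a lymphocyte when an antigen receptor is engaged: Lck, Fyn, Zap70, Txk and Prkcq (kinases), Lat, Lcp2 and Grap2 (adaptors) and Plcg1 (a phospholipase). They were picked by gene name, by a rule that uses no expression value, though with earlier results of these data known, from the 55394 genes listed in the series, and each name had 1 entry whose mouse Ensembl identifier matches the symbol. Their transcripts were measured by SMART-seq in lung group 2 innate lymphoid cells (ILC2s) of neonatal C57BL/6 wild type mice. In 3 libraries the cells came from pups whose dams had received a broad-spectrum antibiotic cocktail (ampicillin, metronidazole, neomycin and vancomycin) with their drinking water between day 10 and day 14 of gestation (Abx), and in 3 libraries from pups of control dams (Con). Each library was made from 1000 cells sorted from digested lungs as CD45+ Lin- CD90.2+ CD25+, where the lineage antibodies included those against CD3e, CD4, CD5, CD8a and TCR-β. The age and sex of the pups in these libraries, and the number of pups or litters behind each, are not given in the sources used here, so p-values measure the spread between these libraries only.

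In T cells, Lck and Fyn, kinases of the Src family, phosphorylate paired-tyrosine motifs (ITAMs) in the CD3 chains. ZAP-70, the Zap70 product, docks on these motifs and phosphorylates the adaptors LAT and SLP76 (encoded by Lcp2), which GADS (encoded by Grap2) holds together. Kinases of the Tec family, to which Txk belongs, activate the phospholipase PLCG1 on this scaffold. Its products open calcium stores and recruit protein kinase C theta, the Prkcq product. ILC2s carry no antigen receptor on their surface, but as cells of the lymphoid lineage they share many of these transcripts with T cells. Some receptors of innate lymphocytes, among them those paired with ITAM-bearing adaptors, use the same enzymes.

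Values are FPKM, fragments per kilobase of exon and scaled to the mapped reads of the library, so levels can be compared between genes. Total FPKM was 420941 to 449523 in Con and 431613 to 489262 in Abx, and 8574 to 9203 genes in Con and 7074 to 8193 in Abx reached 1 FPKM. Read numbers are unknown, so values carry no counting error here, and 0 means only that a gene is listed at 0. Of 12 ILC2 markers, 11 reached 1 FPKM in every Con library and 11 in every Abx library, while Il1rl1, which encodes the receptor for IL-33, stayed under 1 FPKM except in Con library 3 (2.94 FPKM). The groups also differed in the sex-linked transcripts Xist (3.78 to 5.09 FPKM in Con, listed at 0 in every Abx library) and Eif2s3y (0.03 to 0.86 FPKM in Con, 11.8 to 24.4 FPKM in Abx), so for every difference below, exposure and sex of the pups cannot be told apart. In bulk libraries, fewer cells of a type and less RNA per cell cannot be told apart either.

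The members lie apart in the genome. In GENCODE M21 (GRCm38) these protein-coding genes lie on chromosome 4 from 129548344 to 129573641 (Lck, minus strand), chromosome 10 from 39368855 to 39565381 (Fyn, plus strand), chromosome 1 from 36761798 to 36782818 (Zap70, plus strand) and chromosome 5 from 72695978 to 72752777 (Txk, minus strand). Prkcq lies on chromosome 2 from 11172108 to 11301222 and Plcg1 on the same chromosome from 160731300 to 160775760, both on the plus strand. Lat lies on chromosome 7 from 126363824 to 126369570 (minus strand), Lcp2 on chromosome 11 from 34046920 to 34092295 (plus strand) and Grap2 on chromosome 15 from 80572594 to 80652854 (plus strand). Other genes annotated within these spans were all at a mean of 0.127 FPKM or less in both groups.

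The sequences before the transcription starts of Lck, Zap70 and Lat are shown because these are the 3 members in which Con and Abx libraries did not overlap. They are 250 bases long, end at the base before a RefSeq start in GRCm38.p6 and read 5′ to 3′ on the strand of the gene. Lck has 2 such windows, which correspond to its distal and its proximal promoter. As background, the proximal promoter is known for its activity in thymocytes and the distal one for its activity in mature T cells as well. The deposited values are per gene and do not say which start was used. The distal window (chr4:129573642-129573891, minus strand) lies outside the annotated gene. The proximal window (chr4:129558373-129558622, minus strand) lies within it, with 19 bases in an annotated exon. Of the 3 windows of Zap70, the first is shown (chr1:36761548-36761797, plus strand), and Lat has 1 window (chr7:126369569-126369818, minus strand). Capitals mark matches, on either strand, to 5 short motifs of factors that act in lymphocytes.
Lck, distal: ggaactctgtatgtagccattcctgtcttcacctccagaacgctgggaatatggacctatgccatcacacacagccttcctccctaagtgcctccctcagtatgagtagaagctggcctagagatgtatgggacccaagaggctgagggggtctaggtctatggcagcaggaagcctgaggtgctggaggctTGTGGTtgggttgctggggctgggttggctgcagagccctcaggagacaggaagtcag
Lck, proximal: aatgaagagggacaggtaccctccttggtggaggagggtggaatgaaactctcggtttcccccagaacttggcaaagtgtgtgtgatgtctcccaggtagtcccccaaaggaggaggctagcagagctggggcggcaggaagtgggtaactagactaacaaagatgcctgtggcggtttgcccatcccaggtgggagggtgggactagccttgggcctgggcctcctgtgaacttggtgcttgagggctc
Zap70: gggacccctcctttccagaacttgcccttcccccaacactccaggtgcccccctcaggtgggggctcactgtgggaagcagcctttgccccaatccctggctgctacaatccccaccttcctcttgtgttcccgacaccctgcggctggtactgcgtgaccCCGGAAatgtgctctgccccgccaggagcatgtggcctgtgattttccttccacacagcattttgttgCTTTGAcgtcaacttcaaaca
Lat: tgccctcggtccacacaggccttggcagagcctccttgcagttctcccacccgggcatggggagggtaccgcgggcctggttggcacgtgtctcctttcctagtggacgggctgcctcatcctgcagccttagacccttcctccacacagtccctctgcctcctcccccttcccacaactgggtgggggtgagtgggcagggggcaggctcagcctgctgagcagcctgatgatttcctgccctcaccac

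The motifs searched were AGATAA for GATA factors, TGTGGT for RUNX, CTTTGA for TCF/LEF, CCGGAA for ETS and CAGCTG for E-box proteins, none of which overlapped in these windows. TGTGGT occurred 58 bases before the distal start of Lck, and 14.0% of all 32851 promoter windows hold it. The Zap70 window held CCGGAA 89 bases and CTTTGA 21 bases before its start, motifs found in 12% and 13.8% of all windows. The proximal window of Lck and the window of Lat held none of the 5. Over the 13 windows of the 9 genes, CTTTGA was in 4, TGTGGT in 3, AGATAA in 2 (9.99% of all windows) and each of CCGGAA and CAGCTG (13.0% of all windows) in 1.

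The members were expressed at very different levels in these ILC2s. In Con, Lcp2 was at 137 ± 22.7 FPKM (SD, n = 3) and Lat at 133 ± 8.57 FPKM (SD, n = 3), above Zap70 at 86.8 ± 8.07 and Lck at 58.8 ± 1.49 FPKM (SD, n = 3 each). Fyn at 28.1 ± 5.87 and Grap2 at 19.6 ± 4.18 FPKM followed (SD, n = 3 each), then Prkcq at 6.05 ± 7.09, Plcg1 at 1.86 ± 1.61 and Txk at 1.13 ± 1.23 FPKM (SD, n = 3 each). Lat and Lcp2 stood at the 94.1st to 96.6th and the 90.9th to 96th percentile of the 8718 genes tested, over all 6 libraries, and Plcg1 at the 4.96th to 26.3rd. In Abx, Lck stood at rank 1 by the group mean, against rank 4 in Con, followed by Lat, Lcp2 and Zap70, and the order of the other 5 genes was the same.

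Neighbours in the order of the mean over the 6 libraries were compared within each library. Zap70 exceeded Fyn in 6 of 6 libraries, by 1.54 ± 0.45 (SD, n = 6) in log2(FPKM + 1), and Grap2 exceeded Prkcq in 6 of 6, by 1.48 ± 1.61 (SD, n = 6). Both had an exact two-sided permutation p of 0.0312, the smallest that 6 libraries allow, and 0.125 after Benjamini-Hochberg adjustment over the 8 neighbouring pairs. The other 6 pairs (Lat and Lcp2, Lcp2 and Lck, Lck and Zap70, Fyn and Grap2, Prkcq and Plcg1, Plcg1 and Txk) had exact adjusted p-values of 0.167 to 0.656, so no pair of neighbours differed past 0.05 after adjustment.

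**Figure D1:**
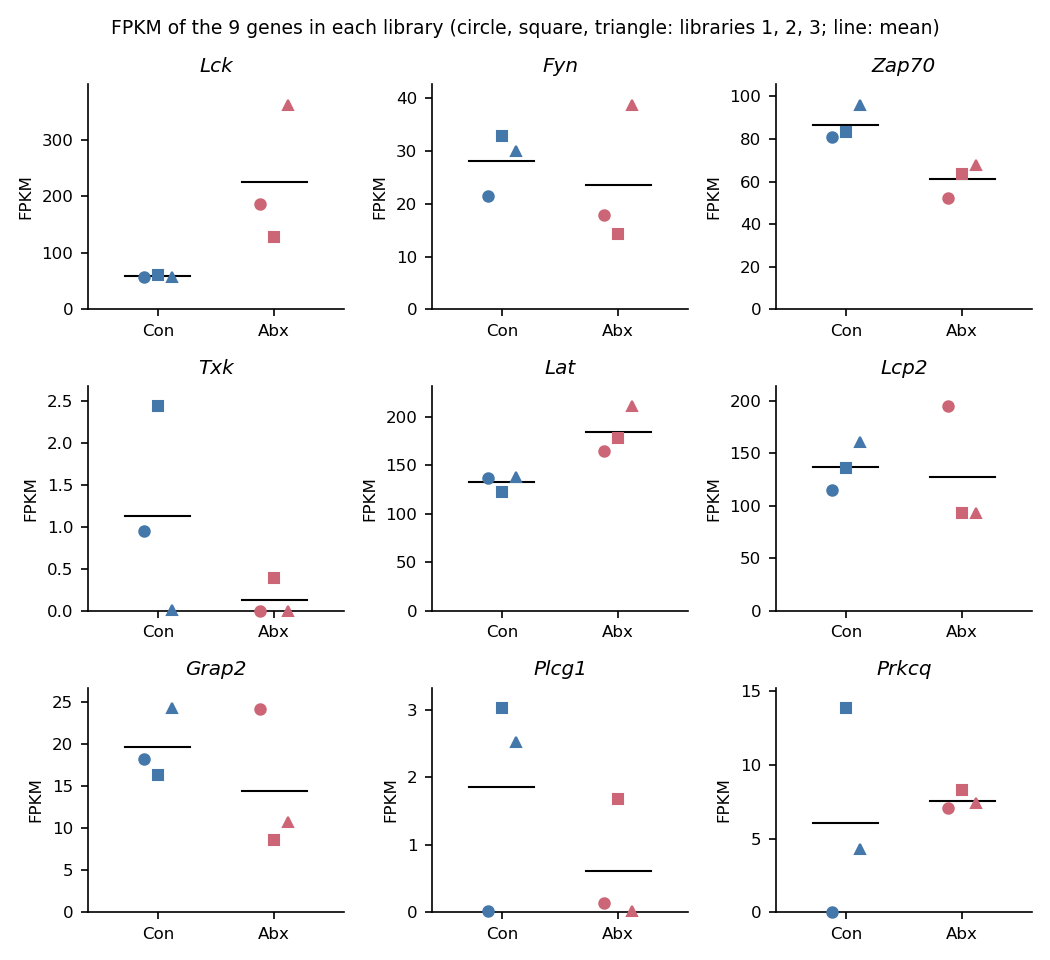
FPKM (vertical axes, from 0, scaled per gene) of the 9 genes in each Con and Abx library, with a line at the group mean. All 3 Abx libraries lie above Con in Lck and Lat and below Con in Zap70, and the groups overlap in the other genes.

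The comparison of Abx with Con asks how prenatal antibiotics bear on the transcripts of neonatal ILC2s. Lck had a mean in Abx 3.83 times that in Con, Lat was 1.39 times and Zap70 0.706 times its mean in Con, and in the other members the libraries of the groups overlapped. None of these differences passed the adjusted test.

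Between Abx and Con, 0 of the 8 members that could be tested passed the thresholds of the study, set at an adjusted p under 0.05 together with a change of more than 2-fold, where 0.0574% of all genes tested did (5 of 8718). Genes were tested with limma (two-sided) on log2(FPKM + 1), and p-values were adjusted by Benjamini-Hochberg over all genes tested. At an unadjusted p under 0.05 the test gave 1 member, Lck, against 11.0% of all genes, and Lck was also the only member with an unadjusted p under 0.05 and a fold change over 2, against 9.34% of all genes. Con and Abx libraries did not overlap in 3 of the 8 members, Lck and Lat (higher in Abx) and Zap70 (lower), while this held for 17.2% of all genes tested (8.49% higher and 8.73% lower). Txk did not reach 1 FPKM in 3 libraries and stayed out of the fit. The median fitted difference over the 8 members was -0.27, and -0.06 over all genes tested.

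**Figure D2:**
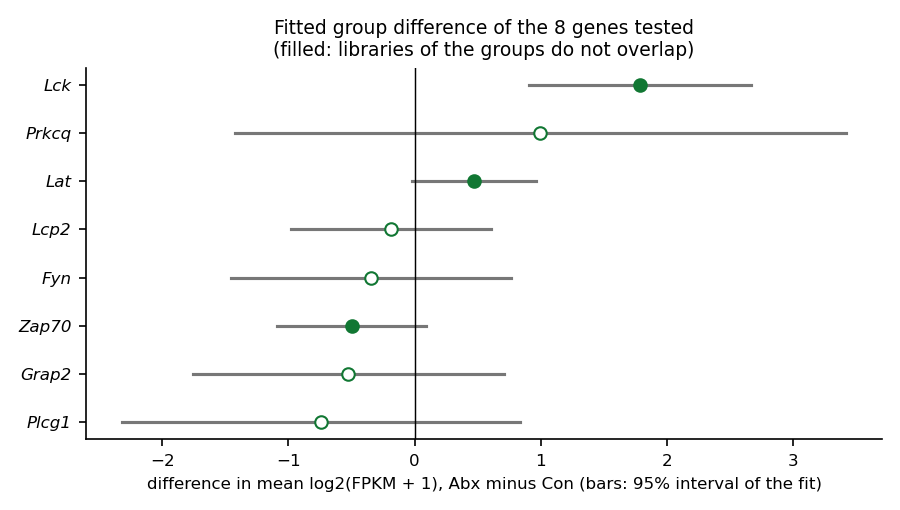
Fitted difference in mean log2(FPKM + 1), Abx minus Con (horizontal axis), of the 8 members tested, with bars for the 95% interval of the fit and filled points where the libraries of the groups did not overlap. The unadjusted interval of Lck, 0.91 to 2.67, lies above 0, and those of the other 7 members include 0.

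Values are given in the order of libraries 1, 2 and 3 throughout. Among the kinases, Lck (ENSMUSG00000000409) was at 57.9, 60.5 and 58.0 FPKM in Con, against 186, 128 and 361 FPKM in Abx. The Con libraries lay close together and every Abx library was above all of them. The mean in Abx was 225 ± 121 FPKM (SD, n = 3), 3.83 times that in Con. The fitted log2 difference was 1.79 (standard error 0.38, unadjusted p = 0.00172, limma adjusted p = 0.104), so Lck missed the adjusted threshold. Without Abx library 3, the highest, the log2 difference was 1.38 (limma adjusted p = 0.169), and without Abx library 2, the lowest, 2.12 (limma adjusted p = 0.123).

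Fyn (ENSMUSG00000019843), the other Src family kinase on the list, was at 21.5, 32.8 and 30.0 FPKM in Con, against 17.8, 14.3 and 38.7 FPKM in Abx. The groups overlapped, with Abx library 3 highest and Abx library 2 lowest of all. The log2 difference was -0.35 (standard error 0.48, limma adjusted p = 0.848), with an interval from -1.46 to 0.76.

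Zap70 (ENSMUSG00000026117) was at 81.0, 83.4 and 96 FPKM in Con, against 52.3, 63.5 and 68.0 FPKM in Abx. All Abx libraries lay below all Con libraries, by a smaller step than for Lck. The mean in Abx was 61.3 ± 8.09 FPKM (SD, n = 3), 0.706 times that in Con. The log2 difference was -0.50 (standard error 0.25, limma adjusted p = 0.541).

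Txk (ENSMUSG00000054892), a Tec family kinase also called resting lymphocyte kinase, was at 0.95, 2.44 and 0.01 FPKM in Con, against 0, 0.39 and 0 FPKM in Abx. It reached 1 FPKM in 1 of the 6 libraries, and an exact two-sided permutation test of log2(FPKM + 1) gave p = 0.2, and a smaller p than 0.1 cannot arise with 3 libraries a group. Prkcq (ENSMUSG00000026778) was at 0.01, 13.9 and 4.27 FPKM in Con, against 7.05, 8.27 and 7.39 FPKM in Abx. The Con libraries of Prkcq spanned the whole range, with the lowest and the highest value of the 6, and the Abx libraries lay close together between them. Its log2 difference was 0.99 (standard error 1.04, limma adjusted p = 0.792) and rested on Con library 1, since without it the difference was -0.05 (limma adjusted p = 0.998).

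Of the adaptors, Lat (ENSMUSG00000030742), the membrane scaffold that ZAP-70 phosphorylates, was at 137, 123 and 138 FPKM in Con, against 165, 178 and 211 FPKM in Abx. Every Abx library was above every Con library. The mean in Abx was 185 ± 23.6 FPKM (SD, n = 3), 1.39 times that in Con. The log2 difference was 0.47 (standard error 0.21, limma adjusted p = 0.472).

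Lcp2 (ENSMUSG00000002699), which encodes the cytosolic scaffold SLP76, was at 115, 136 and 160 FPKM in Con, against 195, 93.1 and 93.6 FPKM in Abx. Abx library 1 was the highest of the 6 and the other two Abx libraries were the lowest. Its log2 difference was -0.19 (standard error 0.34, limma adjusted p = 0.887), with an interval from -0.98 to 0.60. Grap2 (ENSMUSG00000042351), whose product links SLP76 to LAT, was at 18.2, 16.3 and 24.3 FPKM in Con, against 24.1, 8.58 and 10.7 FPKM in Abx. For Grap2, Abx library 1 lay within the Con range and the other two Abx libraries below it. The log2 difference was -0.52 (standard error 0.53, limma adjusted p = 0.782).

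The effector Plcg1 (ENSMUSG00000016933), which cleaves a membrane phospholipid into the messengers that release calcium and activate protein kinase C, was at 0.02, 3.03 and 2.53 FPKM in Con, against 0.14, 1.68 and 0.02 FPKM in Abx. It was near 0 in 1 Con library and in 2 Abx libraries. The log2 difference was -0.74 (standard error 0.68, limma adjusted p = 0.755).

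Since these ratios do not depend on scaling between libraries, the 6 members at 1 FPKM or more in every library were also set against each other within each library. The groups did not overlap in 6 of the 15 ratios, which were looked at after the values had been seen, where 18.5% of the ratios between any 2 of the 4253 such genes did not overlap. All 5 ratios that involve Lck were higher in Abx, and these share the Lck value. The ratio of Lck to Fyn in Con libraries was 2.69, 1.85 and 1.94, against 10.5, 8.98 and 9.34 in Abx, with means of 2.16 ± 0.46 and 9.59 ± 0.77 (SD, n = 3 each). Although both kinases varied over 2-fold among the Abx libraries, their ratio stayed within a narrow range there. The sixth was the ratio of Zap70 to Lat, at 0.592, 0.679 and 0.694 in Con, against 0.317, 0.356 and 0.323 in Abx. Exact two-sided permutation tests of the log2 ratios gave p = 0.1 for each of these 6, the smallest possible.

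**Figure D3:**
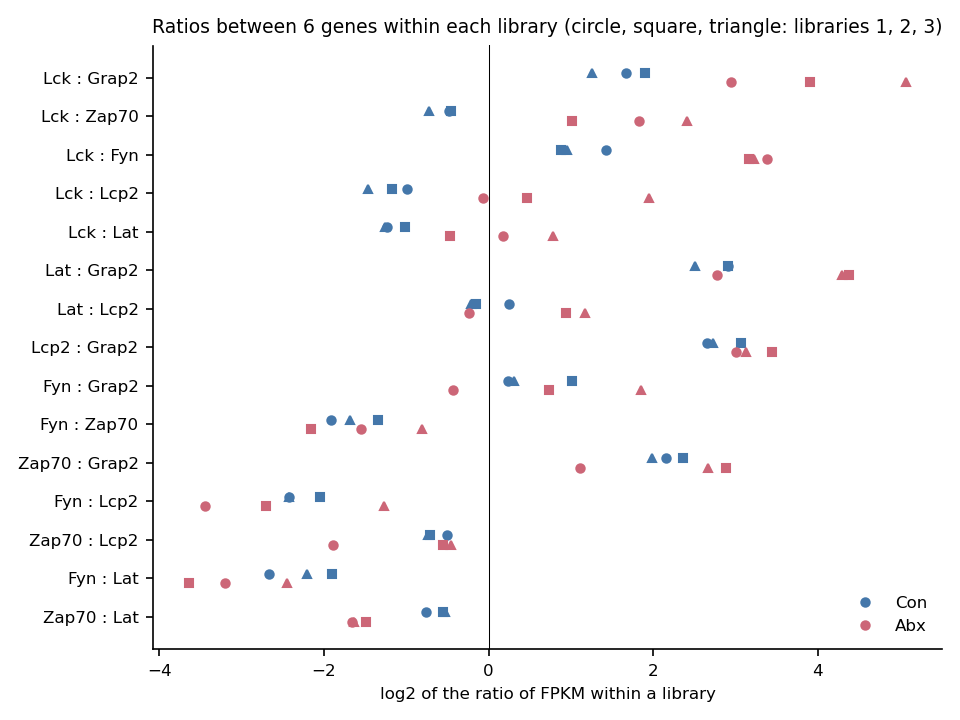
Log2 of the ratio of FPKM (horizontal axis) for the 15 pairs of the 6 members at 1 FPKM or more in every library, with a point for each Con and Abx library. The groups are apart in the 5 pairs with Lck and in Zap70 to Lat, and they overlap in the other 9.

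Several transcripts on the lists of T cell and thymocyte markers were, like Lck, higher in every Abx library than in Con. Some were also high in Con, in cells sorted as Lin-, with Trbc2 at 874 to 958 FPKM and Cd3g at 93 to 124 FPKM. The lists and their sums therefore cannot be read as the content of T cells or thymocytes. The part of these transcripts in the difference of Lck was not tested. Cd3d, a CD3 chain that is on the T cell list and among the ITAM-bearing receptors below, was at 8.32, 6.10 and 4.46 FPKM in Con, against 63.8, 37.1 and 108 FPKM in Abx. Among the Abx libraries, library 3 was highest and library 2 lowest in Cd3d and Cd247, as in Lck, but also in Fyn, whose groups overlapped. With 3 libraries, a shared order does not tie a gene to Lck. Other markers had another order, with Trbc1, Trbc2, Cd3g and Cd8b1 highest in library 2 and Cd3e, Trac and Ptcra in library 1. The log2 difference of Cd3d was 3.18 (standard error 0.51, limma adjusted p = 0.0911). The 13 T cell markers summed to 1241 to 1423 FPKM in Con, against 2588 to 2904 FPKM in Abx, mostly Trbc1 and Trbc2, near-identical constant segments between which reads may have been split. Of the 9 tested, 8 had a positive difference and 0 passed. The groups did not overlap in 5 of the 9, all higher in Abx, beside 8.49% of all genes tested in that direction. Cd8b1, a CD8 chain, was at 4.62, 10.2 and 0 FPKM in Con, against 27.1, 52.2 and 36.4 FPKM in Abx, so its groups did not overlap. Trac, the constant segment of the alpha chain, was at 11.7, 3.01 and 10.8 FPKM in Con, against 21.2, 14.1 and 0.22 FPKM in Abx, and its groups overlapped. Cd4 was listed at 0 except in Abx library 2 (7.46 FPKM), and Cd8a was at 3.25 FPKM in Con library 1 and at 0.04 FPKM or less elsewhere.

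The 6 thymocyte markers summed to 0.02 to 12.4 FPKM in Con, against 151 to 188 FPKM in Abx. Dntt, which adds bases at receptor gene junctions, was at 75.9, 140 and 156 FPKM in Abx and Ptcra, the partner of the beta chain before an alpha chain is made, at 63.1, 44.5 and 15.2 FPKM. In Con, Dntt reached 11.6 FPKM and Ptcra 6.13 FPKM, each in 1 library and at 0.03 FPKM or less in the others. Rag1, part of the enzyme that cuts receptor genes, was at 0.86, 0 and 0 FPKM in Con, against 12.3, 0.99 and 7.8 FPKM in Abx, and Rag2, its partner, was listed at 0 in all 6. The groups did not overlap in Dntt, Ptcra and Rag1, with Abx higher, as in 8.49% of all genes tested. Rag1 was not tested. Dntt and Ptcra reached 1 FPKM in 1 Con library each, so they entered the test through the group where they were high. Their values are a description. In Themis (0, 2.38 and 6.83 FPKM in Abx), Cd8a and Rag2 the groups overlapped.

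Sums over the markers of other cells in Con and Abx were 386 to 511 and 857 to 904 FPKM for B cells (9 genes), 11.6 to 66.0 and 268 to 431 FPKM for NK cells (8 genes) and 143 to 404 and 176 to 369 FPKM for myeloid cells (8 genes). They were 343 to 426 and 185 to 540 FPKM for mast cells and basophils (6 genes), 24.5 to 1158 and 55.7 to 142 FPKM for epithelium (6 genes), and 5.51 to 11.0 and 6.50 to 21.4 FPKM for endothelium and fibroblasts (6 genes). Ighm (109 to 159 FPKM in Con, 358 to 429 FPKM in Abx) and Igkc (127 to 218 and 261 to 365 FPKM) made up most of the B cell sum in Abx. Of the 7 B cell markers tested, 5 had a positive and 2 a negative difference. The latter were Cd79b (69.5 to 117 FPKM in Con, 31.0 to 57.4 FPKM in Abx) and Cd22 (2.74 to 11.0 and 0.06 to 1.33 FPKM). Gzma (0 to 13.8 FPKM in Con, 215 to 224 FPKM in Abx) and Nkg7 (7.61 to 37.3 FPKM in Con, 52.2 to 212 FPKM in Abx) made up most of the NK cell sum in Abx, while Ncr1 was listed at 0 in Abx and Klrb1c and Prf1 in all 6 libraries. The 12 ILC2 markers summed to 2822 to 3231 FPKM in Con, against 2105 to 2698 FPKM in Abx. Of the 11 ILC2 markers tested, 5 had a positive and 6 a negative difference. The groups did not overlap in 3 of the 11 (27.3%, against 17.2% of all genes tested), all lower in Abx. Means in Con and Abx were 740 and 289 FPKM for Areg, 630 and 438 FPKM for Arg1 and 272 and 106 FPKM for Icos. Gata3 (83.3 and 58.6 FPKM), Rora (82.6 and 50.9 FPKM) and Il2ra (36.6 and 26.5 FPKM) were lower too, with groups that overlapped. Id2 (880 and 1137 FPKM), Il7r (37.2 and 49.3 FPKM) and Bcl11b (5.66 and 9.94 FPKM) were higher in Abx. Klrg1 (272 and 282 FPKM) and Thy1 (10.6 and 11.8 FPKM) were slightly higher, and the groups overlapped in these as well. The T cell sums did not overlap between the groups either, so setting Lat (higher in Abx) and Zap70 (lower) against them only repeats the group difference. Among the Abx libraries, Lat and Zap70 were both highest in library 3, the T cell sum was highest in library 2, and single markers differed in order. An order over 3 libraries cannot decide what part these transcripts have in Lat or Zap70, which was not tested.

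**Figure D4:**
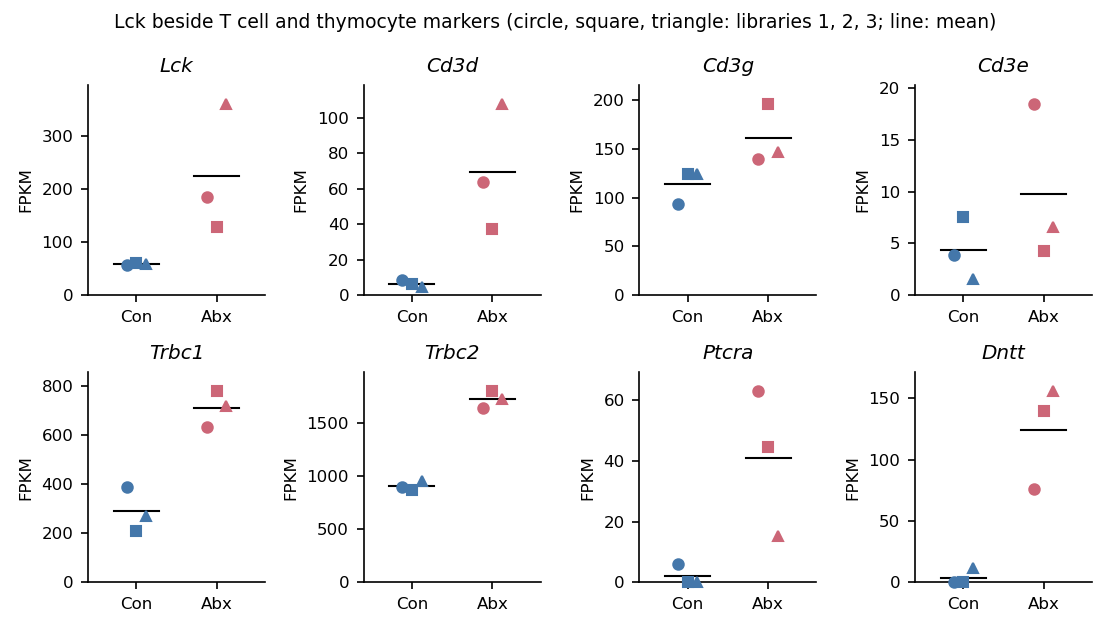
FPKM (vertical axes, from 0, scaled per gene) of Lck beside 5 T cell and 2 thymocyte markers in each library, with a line at the group mean. Cd3d, Cd3g, Trbc1, Trbc2, Ptcra and Dntt lie higher in every Abx library than in Con, as Lck does, while Cd3e overlaps between the groups.

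Many members have a close relative that does the same step in other cells, and the relatives were read from the same libraries. Syk, which takes the place of ZAP-70 in B cells and myeloid cells, was at 1.13 FPKM in Con library 3 and at 0.09 FPKM or less elsewhere, while Zap70 was at 52.3 FPKM or more throughout. Of the other Src family kinases, Lyn was at 14.7 to 25.0 FPKM in Con, against 5.82 to 18.0 FPKM in Abx. Its means of 18.15 FPKM in Con and 12.5 FPKM in Abx were below those of Fyn (28.1 and 23.6 FPKM). Blk, known from B cells, ranged from 0 to 28.1 FPKM. Src reached 5.57 FPKM in a Con library, and Yes1 and Fgr stayed under 1 FPKM throughout.

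Among Tec family kinases, Txk and Tec stayed at 2.44 FPKM or less and Btk at 5.07 FPKM or less. Grap, a relative of Grap2, was at 128 to 222 FPKM in Con, against 75.4 to 197 FPKM in Abx, above Grap2 in all 6 libraries. Lat2, the LAT relative of B cells and myeloid cells, was at 6.41 to 50.3 FPKM, below Lat in all 6, and Blnk, the B cell counterpart of SLP76, reached 2.82 FPKM in Con library 1 only. Plcg2 was at 20.2 FPKM in Con library 2, at 16.8 FPKM in Abx library 1 and at 0.02 FPKM or less elsewhere. Prkch (2.14 to 23.5 FPKM) had means of 15.25 FPKM in Con and 13.5 FPKM in Abx, above those of Prkcq (6.05 and 7.57 FPKM). Prkcd (0.27 to 10.8 FPKM) had means of 7.87 and 5.11 FPKM.

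A wider list of 84 genes around these members was read in the same fit, of which 62 were tested and 0 passed in either direction. Their median log2 difference was -0.54, against -0.06 over all genes tested, with 42 of 62 negative (67.7%), where 4621 of 8718 were negative. At an unadjusted p under 0.05, 1 was higher in Abx and 6 were lower, 11.3% of those tested, which is near the 11.0% over all genes (4.74% higher and 6.25% lower). The groups did not overlap in 15 of the 62, with 12 lower and 3 higher in Abx. That is 24.2% of the 62 (19.4% lower), beside 17.2% of all genes tested (8.73% lower). A gene high in Con alone could pass the filter, as Stim2, Skap2 and Cblb did, so these shares and medians cover the genes that passed, not the whole list. Without Abx library 3 the median log2 difference was -0.25. The number of genes at 1 FPKM was also lower in each Abx library than in Con, and its part in the median was not tested.

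By role, the median was 0.60 over the 6 ITAM-bearing receptor chains, -0.59 over 7 family counterparts, -0.30 over 16 regulators of the proximal kinases, -0.68 over 11 partners of LAT and SLP76 and -0.61 over 22 genes downstream of PLCG1 and protein kinase C theta. None of these genes passed the thresholds.

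**Figure D5:**
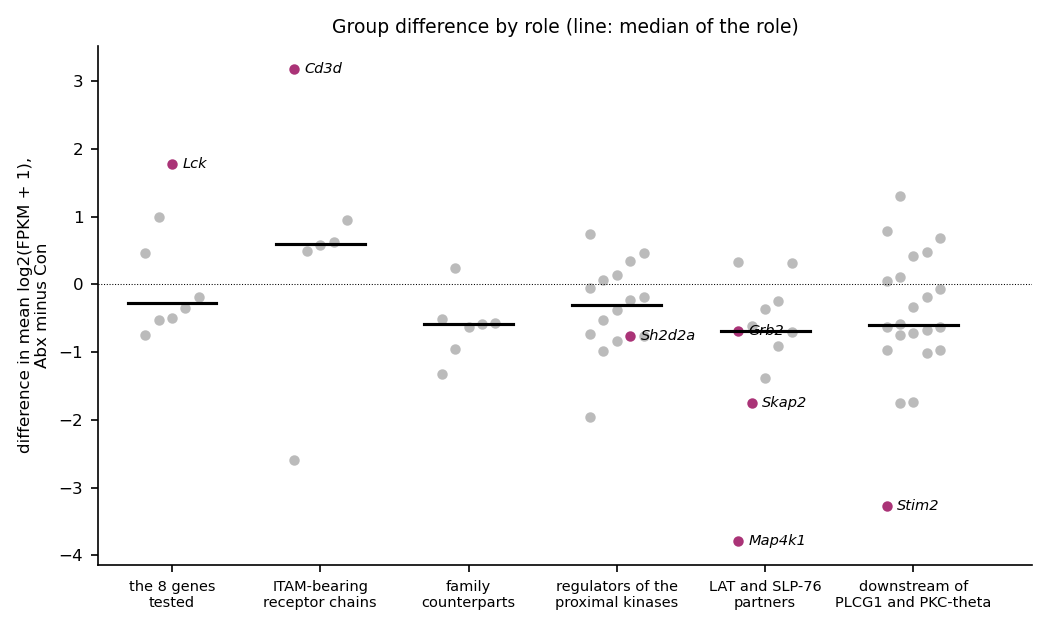
Difference in mean log2(FPKM + 1), Abx minus Con (vertical axis), of the 8 members tested and of the 62 other genes tested, by role, with a line at the median of each role and names at Lck and at the genes with an unadjusted p under 0.05 whose values are given in the text. Apart from Lck and Cd3d the named genes lie below 0.

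The genes with an unadjusted p under 0.05 included, besides Cd3d, Map4k1, Stim2, Skap2, Grb2 and Sh2d2a, and in each of these 5 every Abx library was below every Con library. Stim2 and Skap2 reached 1 FPKM in the 3 Con libraries only and so entered the test through the group where they were high, and their values are a description. Map4k1, which encodes HPK1, a kinase that binds SLP76 and restrains signaling, was at 53.1, 42.8 and 29.4 FPKM in Con, against 0.03, 10.3 and 1.3 FPKM in Abx. Its log2 difference was -3.80 (standard error 0.92, limma adjusted p = 0.130). Stim2, a sensor of calcium in the endoplasmic reticulum, was at 9.91, 7.23 and 12.5 FPKM in Con, against 0.28 FPKM or less in Abx, while the related sensor Stim1 overlapped between the groups.

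Skap2, an adaptor bound by Src family kinases, was at 1.25 to 3.83 FPKM in Con, against 0.03 FPKM or less in Abx, and its lymphocyte relative Skap1 was at 97.4 to 141 FPKM over all 6 libraries. Grb2, the adaptor that couples LAT to Ras, was at 80.2 ± 3.92 FPKM in Con, against 50.2 ± 10.3 FPKM in Abx (SD, n = 3 each; limma adjusted p = 0.400). Sh2d2a, which encodes an adaptor that binds Lck, was at 79.2 ± 14.1 FPKM in Con, against 46.3 ± 9.22 FPKM in Abx (SD, n = 3 each; limma adjusted p = 0.374).

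The gene with the nearest profile to each member was taken as the one with the smallest mean absolute difference over the 6 libraries in log2(FPKM + 1), after each gene's own mean was subtracted, among 8717 other genes tested. For Lck this was Hivep3, a zinc finger gene, at 9.03, 9.42 and 9.43 FPKM in Con, against 28.5, 15.4 and 43.4 FPKM in Abx, with a mean difference of 0.193. For Lat it was Ncor1 (0.067) and for Zap70 Gm10231 (0.055). For the other members it was Tcf25 (Fyn, 0.099), Ier2 (Lcp2, 0.074), Oga (Grap2, 0.129), Eif4a2 (Prkcq, 0.258) and Tusc1 (Plcg1, 0.052). No member was the nearest gene of another.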

How the data were processed

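SMART-seq libraries were prepared by the authors from 1000 sorted lung ILC2s each (3 Con, 3 Abx). The deposited values are FPKM per gene, which the authors made with Cutadapt, HISAT2 and StringTie, as their methods state. The methods name a human Ensembl annotation, but 55134 of the 55394 identifiers are in the mouse annotation GENCODE M21. The submitters' processing notes also list Bowtie 0.12.2, mm8 and mm9, so coordinates here are those of GENCODE M21 and not of the deposited files. Low values showed no steps of 1 read (25.6% to 28.5% within 0.1 of a whole multiple, 20% by chance), so read counts and depth are unknown, and DESeq2, which the authors used, was not run.

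Groups and replicate numbers came from the sample titles. Genes that reached 1 FPKM in 3 or more libraries were compared on log2(FPKM + 1), which understates the change of low genes, with limma 3.58.1 in R 4.3.3 (lmFit, eBayes with trend, two-sided, Benjamini-Hochberg).

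The members, gene lists and marker lists were chosen with earlier results of these data known. Genes named are the 9 members, their family counterparts, list genes with an unadjusted p under 0.05, the nearest profile to each member and genes of the marker lists. Some genes of the lists are counted but not reported here by name. Stim1 and Skap1 were named after their values were seen. Alternatives were pseudocounts of 0.1 and 0.01, quantile normalization, median centring, no filter, a filter at a mean of 5 FPKM, robust variance, a replicate block, the unadjusted p and each library left out.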

Additional observations from a re-analysis of the deposited data

How the results depend on the processing

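The log2 differences of 8 of the 9 members kept their sign under every alternative run. The exception was Prkcq, at -0.049 without Con library 1, where leaving out 1 library gave -0.049 to 1.89. Pseudocounts of 0.1 and 0.01 moved the low genes, to 2.02 and 2.84 for Prkcq, -1.42 and -1.64 for Plcg1 and -1.97 and -3.40 for Txk. The number of members that passed stayed at 0, also with each library left out (0 to 0), apart from the unadjusted p with a fold change over 2, which gave 1. The adjusted p of Lck ranged from 0.1 to 0.469. With each library left out, the log2 difference was 1.38 to 2.12 for Lck, 0.37 to 0.55 for Lat, -0.58 to -0.39 for Zap70, -0.76 to -0.07 for Fyn, -0.54 to -0.01 for Lcp2, -0.94 to -0.24 for Grap2, -1.37 to -0.38 for Plcg1 and -1.21 to -0.33 for Txk. Plcg1 gave no value under the stricter filter, and Txk, which is under the filter, only with other pseudocounts, without a filter and with libraries left out.

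Of all genes tested, 5 passed, but 0 did with either pseudocount, median centring, no filter or the replicate block, 0 to 2 with a library left out (2 without Abx library 2), 7 with quantile normalization or the stricter filter, and 814 with the unadjusted p; the causes were not tested. The median of the 62 pathway genes, -0.54, was -0.63 and -0.64 at pseudocounts of 0.1 and 0.01, -0.36 with quantile normalization, -0.37 without a filter, -0.35 with the stricter filter and -0.56 to -0.25 with a library left out. The titles and methods name no pairing of the samples by replicate number. Same-numbered libraries had correlations of -0.029 to 0.010 in their deviations from the group means, which cannot show whether samples were paired. As a block the replicate numbers changed no member's call. Read depth is unknown, so for Txk and Plcg1, near 0 in several libraries, no lower limit of detection can be given.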
